A study of Mus musculus with 8 samples.

Results

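The genes described here carry the signal from death receptors to apoptosis or to necroptosis: Mlkl, Ripk3, Zbp1, Fadd, Casp8, Cflar, Bid and Tradd. They were chosen by name, as necroptosis effectors and death receptor caspases with their adaptors, with earlier results of these data known. All 8 were found among the 19938 genes measured. Each gene was read through the probe set annotated to its symbol alone, and where there were several (Cflar has 3) through the one with the highest mean over all 8 arrays. The livers came from 4 transgenic mice, in which the LAP promoter, active in hepatocytes, drives constitutively active IKK2, and from 4 wild type control mice. All 8 were 4 weeks old and shared a background of C57BL/6 mixed with NMRI, followed by 4 or more backcrosses to C57BL/6. IKK2 is the kinase that frees the transcription factor NF-kB from its inhibitors, and the comparison asks which transcripts differ when it is active in hepatocytes. Each liver has 1 Affymetrix array, whose values are log2 expression values.

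A death receptor such as the TNF receptor or Fas gathers adaptor proteins on its inner side once its ligand has bound. Tradd docks on the TNF receptor, and Fadd brings in Casp8, the protease caspase-8, which starts apoptosis. Cflar encodes cFLIP, a caspase-8 relative without protease activity that restrains it, and Bid is cut by caspase-8 and passes the signal to mitochondria. Where caspase-8 is held back, the kinase Ripk3 phosphorylates the pseudokinase Mlkl, which then breaks the plasma membrane, a death called necroptosis. Zbp1 senses nucleic acids in the Z conformation and can switch on Ripk3 without a death receptor. In liver, NF-kB is known to protect hepatocytes from TNF, and Cflar is among the genes it can induce.

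Promoters from RefSeq (build GRCm38.p6), each running from 250 bases before the start site to 50 bases after it, were matched for 6 of the 8 genes (Mlkl, Ripk3, Fadd, Casp8, Cflar and Bid). They were searched on both strands for the kappa B consensus of NF-kB, for the core of the interferon-stimulated response element (TTTC, any 2 bases, TTTC) and for the gamma-activated site, TTCNNNGAA. Of 32851 promoters of this length, 8.46%, 3.44% and 8.30% hold these motifs, in that order. Only Cflar had a match, the core TTTCGGTTTC on its own strand, starting at base 7 counted from the start site of that window and overlapping no other match. The other 5 hold none of these letters in this window, which says nothing of the factors. The sequences of Mlkl and Bid are shown because these genes passed the test below, and that of Cflar because of its match, which stands in capitals. They lie at chr8:111338156-111338455 (minus strand), chr6:120916775-120917074 (minus strand) and chr1:58711241-58711540 (plus strand). The start sites that these windows use for Cflar and Casp8 lie 91011 bases apart on the same strand of chromosome 1.
Mlkl: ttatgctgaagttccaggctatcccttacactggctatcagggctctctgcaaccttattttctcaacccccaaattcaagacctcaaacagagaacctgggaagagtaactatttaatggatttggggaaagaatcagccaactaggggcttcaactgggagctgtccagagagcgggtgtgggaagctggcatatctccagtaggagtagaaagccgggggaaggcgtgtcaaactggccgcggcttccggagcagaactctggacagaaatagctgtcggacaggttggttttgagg
Bid: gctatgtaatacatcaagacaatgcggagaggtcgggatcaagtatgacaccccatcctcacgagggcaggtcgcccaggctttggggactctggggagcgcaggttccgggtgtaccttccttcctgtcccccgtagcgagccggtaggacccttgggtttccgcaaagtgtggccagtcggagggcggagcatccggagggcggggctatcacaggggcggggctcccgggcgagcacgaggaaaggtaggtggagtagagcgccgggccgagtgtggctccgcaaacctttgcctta
Cflar: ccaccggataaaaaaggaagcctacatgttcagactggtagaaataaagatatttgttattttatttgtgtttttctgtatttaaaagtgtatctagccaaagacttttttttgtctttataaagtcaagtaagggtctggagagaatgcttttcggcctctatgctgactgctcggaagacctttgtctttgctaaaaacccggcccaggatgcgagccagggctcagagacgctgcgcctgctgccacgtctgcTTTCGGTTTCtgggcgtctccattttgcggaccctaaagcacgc

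The array medians lay between 4.88 and 5.08, and the 4 arrays of a group are labelled as biological replicates. The upper quartile was 6.98, 7.06, 6.87 and 6.87 in transgenic replicates 1 to 4. In control replicates 1 to 4 it was 6.84, 6.76, 6.78 and 6.85. Ikbkb, the gene of IKK2, had 8.995, 9.09, 8.38 and 8.38 for transgenic replicates 1 to 4, against 7.79, 7.44, 7.85 and 7.77 for control replicates 1 to 4, with no overlap. No source used here says whether its probe set also reads the transgene. Transgenic replicate 2 stood apart. It was the highest of the 8 arrays in all 8 genes described here, against 25.0% of all genes. That share includes dim genes, whereas the 8 genes lie above the median gene in mean value. This array also had the lowest median and the highest upper quartile of the 8 arrays. What part its wider range of values had in the 8 genes was not tested. The fold changes of the 8 genes and the main counts are therefore also given without transgenic replicate 2. Of all genes, 4.67% were called higher and 1.67% lower in transgenic liver, at an adjusted p under 0.05 in limma's moderated test with Benjamini-Hochberg adjustment over all probe sets tested. Whole liver was measured, so more cells of a type and more RNA per cell cannot be told apart.

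Of the 8 genes, Mlkl and Bid rose, 6 did not pass and 0 fell. At an unadjusted p under 0.05, 0 were lower too. The 2 calls are 25% of the 8 genes, against a background of 4.67% called higher. That background includes dim genes, whereas the 8 genes lay at percentiles 58.8 to 89.4 of mean value over all genes. Without the dimmest 50% of probe sets, 1051 of 9924 genes and 3 of the 8 were called higher. The median log2 fold change of all genes was then 0.05. At an unadjusted p under 0.05, 7 of the 8 were higher, against 15.3% of all genes, and the exception was Tradd. The median log2 fold change, transgenic minus control, was 0.59 for the 8 genes and -0.07 for all genes. In 5 of the 8 (Mlkl, Zbp1, Casp8, Cflar and Bid) every transgenic array was above every control array, against 11.2% of all genes. Because the 8 genes were chosen with earlier results of these data known, these shares describe them and test nothing. The calls are fragile to the loss of an array. Without transgenic replicate 1, or without any 1 of the control arrays, 0 of the 8 passed, whereas Bid, Mlkl and Zbp1 did without transgenic replicate 2. Without transgenic replicate 3 these same 3 passed with Fadd, and without transgenic replicate 4 they passed with Cflar.

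**Figure D1:**
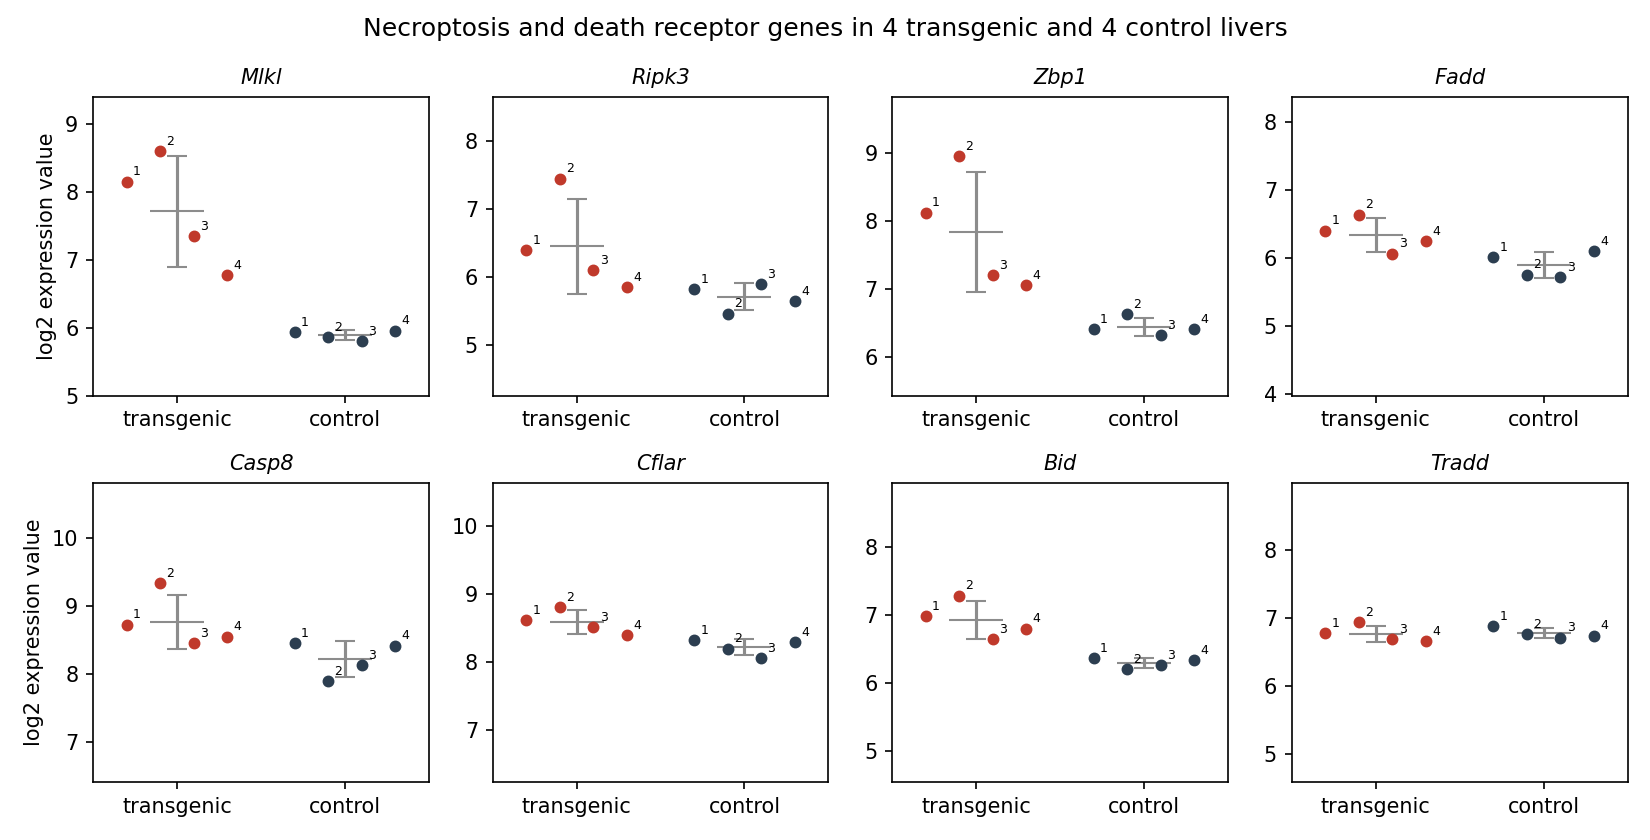
Log2 expression value (vertical axis, each panel spanning the same range of log2 units) of the 8 genes in 4 transgenic livers (red, left) and 4 control livers (dark, right), with the replicate number beside each point and the mean and SD of 4 arrays in grey. Transgenic replicate 2 is the highest point of every panel, and the transgenic points of Mlkl, from 6.77 to 8.60, lie above its controls, from 5.80 to 5.96.

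Mlkl, the protein that opens the membrane in necroptosis, had the largest change of the 8. It read 8.15, 8.60, 7.34 and 6.77 in transgenic replicates 1 to 4, against 5.94, 5.86, 5.80 and 5.96 in control replicates 1 to 4 (probe set 10581813, chromosome 8). The groups did not overlap, and even the lowest transgenic liver, replicate 4, stood 0.88 above the control mean. The mean was 7.71 ± 0.82 in transgenic livers and 5.89 ± 0.07 in control livers (SD, n = 4 each). Mlkl rose 3.54-fold, by 1.82 log2 units (limma SE 0.33, 95% interval 1.09 to 2.56, adjusted p = 0.0183), higher than 99.3% of all genes. Over the 16 alternatives tried its log2 fold change ranged from 1.43 to 2.14 and was 1.53 without transgenic replicate 2. The adjusted p was 0.0690 without transgenic replicate 1, and 0.0567, 0.0691, 0.0643 and 0.0566 without control replicates 1 to 4, over a range of 0.00274 to 0.0691.

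Ripk3, the kinase that activates Mlkl, did not pass. Its values were 6.40, 7.45, 6.10 and 5.85 in transgenic replicates 1 to 4, against 5.83, 5.47, 5.905 and 5.65 in control replicates 1 to 4 (probe set 10420198, chromosome 14). Transgenic replicate 2 was far above the rest, and transgenic replicate 4 fell within the controls. The log2 fold change was 0.74 (limma SE 0.29, 95% interval 0.08 to 1.40, adjusted p = 0.119), and without transgenic replicate 2 it was 0.41 (adjusted p = 0.133).

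Whether Mlkl and Ripk3 changed unequally was tested on the difference of their log2 values within each array. That difference averaged 1.26 ± 0.35 in transgenic livers and 0.18 ± 0.22 in control livers (SD, n = 4 each), a shift of 1.08 toward Mlkl. All 4 transgenic arrays were above all controls. The exact two-sided permutation test over the 8 arrays gave p = 0.0286, the smallest that 70 assignments allow, and p = 0.0571 adjusted over the 2 such comparisons made. This misses the threshold of 0.05.

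Zbp1, the nucleic acid sensor upstream of Ripk3, lay just outside the threshold. It read 8.13, 8.95, 7.21 and 7.05 in transgenic replicates 1 to 4, against 6.42, 6.63, 6.32 and 6.42 in control replicates 1 to 4 (probe set 10490150, chromosome 2). All transgenic livers were above all control livers, with replicates 1 and 2 well above replicates 3 and 4. The log2 fold change was 1.39, or 2.62-fold (limma SE 0.36, 95% interval 0.59 to 2.18, adjusted p = 0.0503). It passed in 9 of 16 alternatives, among them without transgenic replicate 2, where the log2 fold change was 1.02 (adjusted p = 0.0261). The adjusted p ranged from 0.0196 to 0.139 over the alternatives.

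Casp8 and its regulator Cflar, near each other on chromosome 1, were higher in every transgenic liver and did not pass. Casp8 read 8.73, 9.34, 8.461 and 8.55 in transgenic replicates 1 to 4, against 8.459, 7.89, 8.13 and 8.42 in control replicates 1 to 4 (probe set 10346564). The groups nearly touched, at transgenic replicate 3 and control replicate 1. The log2 fold change of Casp8 was 0.54 (limma SE 0.20, 95% interval 0.10 to 0.99, adjusted p = 0.101), and 0.35 without transgenic replicate 2. Cflar read 8.62, 8.81, 8.52 and 8.40 in transgenic replicates 1 to 4, against 8.33, 8.20, 8.07 and 8.30 in control replicates 1 to 4 (probe set 10497931). This is a gap of less than 0.1 between transgenic replicate 4 and control replicate 1. The log2 fold change of Cflar was 0.36 (limma SE 0.11, 95% interval 0.12 to 0.60, adjusted p = 0.0664), and 0.29 without transgenic replicate 2 (adjusted p = 0.120). The other probe sets of Cflar had log2 fold changes of 0.40 and 0.56 (adjusted p = 0.100 and 0.0668), so all 3 pointed up and none passed.

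The balance of Cflar against Casp8 was compared in the same way as that of Mlkl against Ripk3. The log2 difference, Cflar minus Casp8, averaged -0.18 ± 0.24 in transgenic livers and -0.0021 ± 0.21 in control livers (SD, n = 4 each). The transgenic values ran from -0.52 to 0.06 and the control values from -0.13 to 0.31, so the groups overlapped. The shift of -0.18 had p = 0.371 in the exact two-sided permutation test, and p = 0.371 adjusted over both comparisons. Without transgenic replicate 2 the shift was -0.07, and without control replicate 2 it was -0.08.

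Bid, the link from caspase-8 to mitochondria, rose. It read 6.99, 7.29, 6.65 and 6.81 in transgenic replicates 1 to 4, against 6.37, 6.21, 6.27 and 6.34 in control replicates 1 to 4 (probe set 10547531, chromosome 6). The controls were close together and below every transgenic liver. The mean was 6.94 ± 0.27 in transgenic livers and 6.30 ± 0.07 in control livers (SD, n = 4 each). The log2 fold change was 0.63, or 1.55-fold (limma SE 0.13, 95% interval 0.34 to 0.93, adjusted p = 0.0290), and 0.52 without transgenic replicate 2 (adjusted p = 0.0165). Bid did not pass without transgenic replicate 1 (adjusted p = 0.0971), without control replicates 1 to 4 (0.0740, 0.0888, 0.0841 and 0.0687) and with the replicate number as a block (0.0507), over a range of 0.0152 to 0.0971.

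The adaptors Fadd and Tradd did not pass. Fadd, which brings caspase-8 to the receptor, read 6.41, 6.64, 6.07 and 6.25 in transgenic replicates 1 to 4, against 6.02, 5.76, 5.73 and 6.11 in control replicates 1 to 4 (probe set 10569611, chromosome 7). Transgenic replicate 3 lay below control replicate 4, so the groups overlapped. The log2 fold change of Fadd was 0.44 (limma SE 0.14, 95% interval 0.13 to 0.75, adjusted p = 0.0760), and 0.34 without transgenic replicate 2 (adjusted p = 0.141). Tradd, the adaptor of the TNF receptor, read 6.78, 6.94, 6.70 and 6.67 in transgenic replicates 1 to 4, against 6.89, 6.77, 6.72 and 6.75 in control replicates 1 to 4 (probe set 10581181, chromosome 8). The groups lay across each other. Its log2 fold change was -0.0080 (limma SE 0.09, 95% interval -0.21 to 0.19, adjusted p = 0.952), with -0.06 without transgenic replicate 2, and it took the opposite sign with each array centred on its median (0.07) and without transgenic replicates 3 or 4 or control replicate 1 (0.02 to 0.03).

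**Figure D2:**
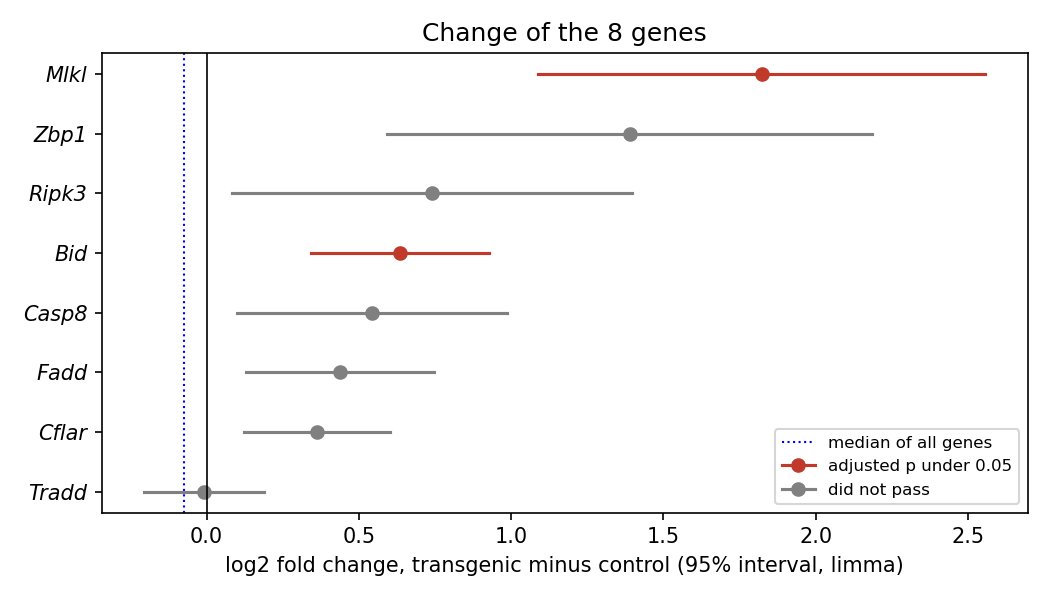
Log2 fold change (horizontal axis, transgenic minus control, n = 4 each) of the 8 genes, ordered by size, with limma's 95% interval as a line. Mlkl and Bid, in red, passed the adjusted threshold; the dotted line is the median of all genes, -0.07, and only the interval of Tradd, from -0.21 to 0.19, spans 0.

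The transgenic livers differed among themselves in a shared order. In all 8 genes transgenic replicate 2 was the highest and replicate 1 the next, both above replicates 3 and 4. Over all genes, dim ones included, replicates 1 and 2 both lay above 3 and 4 in 27.5%. The upper quartiles of whole arrays had the same split, 7.06 and 6.98 in replicates 2 and 1 against 6.87 in both others. The order is therefore not particular to these 8 genes, and its cause was not tested. Ikbkb had the same split, with replicates 1 and 2 near 9.0 and replicates 3 and 4 at 8.38. The SD was larger among transgenic than among control livers in all 8 genes, against 59.4% of all genes. It was 11.4 times as large for Mlkl, 6.78 times for Zbp1 and 1.29 times for Fadd, the smallest of the 8, with a median ratio of 1.18 over all genes. Groups of 4 arrays give such ratios little precision, and no test was made of them.

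Markers of other cells moved in the same livers. Of 11 macrophage and Kupffer cell markers, 9 rose, 0 fell and 2 did not pass. The count was 6, 11, 8 and 11 without transgenic replicates 1 to 4, and 7, 6, 6 and 6 without control replicates 1 to 4. Their mean log2 value was 9.41, 10.4, 9.37 and 9.06 in transgenic replicates 1 to 4, against 7.85 to 8.23 in the controls. The order of transgenic livers was 2, 1, 3 and 4, as for Mlkl, Ripk3, Zbp1, Cflar and Tradd. Among them Lyz2, a lysozyme of myeloid cells, rose by 2.84, Adgre1, the F4/80 antigen, by 1.74, Cd68, a lysosomal protein of macrophages, by 1.71, and C1qb, a chain of complement C1q, by 1.66 (adjusted p = 0.000697, 0.00697, 0.00646 and 0.0101). All 7 measured monocyte markers rose, with list means of 6.44 to 8.25 in transgenic livers and 4.71 to 4.93 in control livers, in the order 2, 1, 4 and 3, as for Fadd, Casp8 and Bid. The count was 4, 7, 7 and 7 without transgenic replicates 1 to 4, and 4, 3, 3 and 5 without control replicates 1 to 4. The highest fitted log2 fold changes were those of the chemokine receptor Ccr2 (3.72), the integrin chain Itgax (2.46), the fractalkine receptor Cx3cr1 (2.32) and the integrin chain Itgam (2.30). In controls Ccr2, Itgax and Itgam read 3.69 to 4.60, below the median of each of the 8 arrays, which leaves how much they rose, and their order, uncertain. Of 9 T and NK cell markers Cd3g and Nkg7 rose, by 1.53 and 1.52, and 7 did not pass (1 passed without control replicates 2, 3 or 4, 4 without transgenic replicate 3 and 3 without transgenic replicate 4), with list means of 4.81 to 5.73 in transgenic and 4.36 to 4.48 in control livers. Of 9 hepatocyte markers 0 passed in limma's test, and at an unadjusted p under 0.05 there were 0 higher and 2 lower, against 15.3% and 18.3% of all genes. The member with the smallest p was the asialoglycoprotein receptor Asgr1, at -0.31 log2 units (adjusted p = 0.113), and the other, named after its value was seen, was the thyroid hormone carrier Ttr, at -0.29 (adjusted p = 0.138). The hepatocyte list mean ran from 11.9 to 12.2 in transgenic livers and from 12.1 to 12.2 in control livers. The orders 2, 1, 3 and 4 and 2, 1, 4 and 3 were not particular to macrophage and monocyte markers. The T and NK cell and B cell list means had the first order. In controls these means ran from 4.36 to 4.48 and from 4.46 to 4.67, under every array median. The bile duct list mean, with 0 of 5 markers called, had the second. Macrophages and lymphocytes are known to express Ripk3, Mlkl and Zbp1, and the part these cells had in the values of the 8 genes was not tested.

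**Figure D3:**
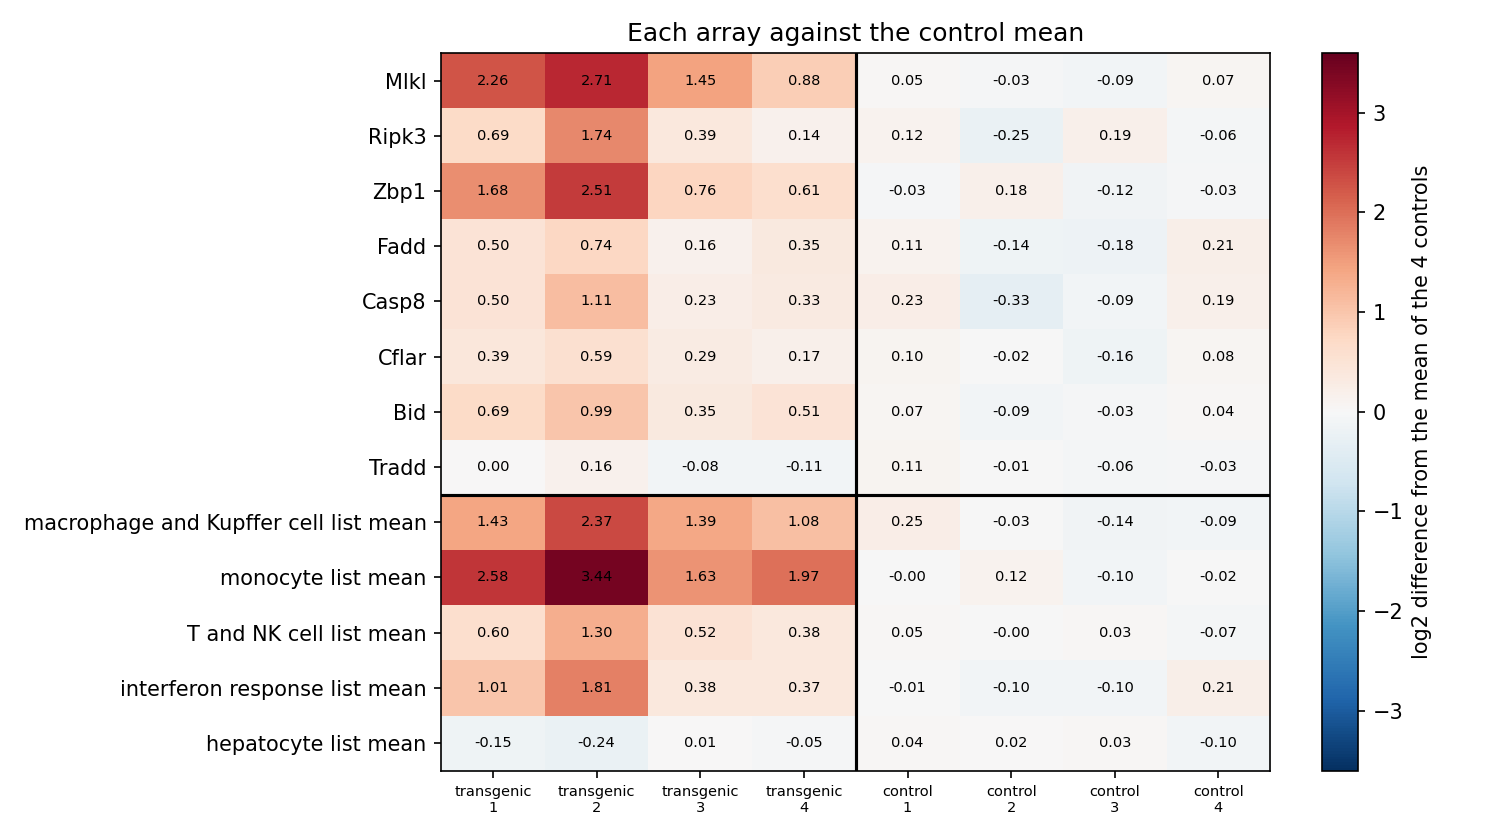
Log2 difference of each array (columns, 4 transgenic on the left and 4 control on the right) from the mean of the 4 controls, for the 8 genes (upper rows) and for the mean over 5 lists (lower rows); each cell prints its value and red is higher. Transgenic replicate 2 has the highest value in every row but that of the hepatocyte list, where its mean of 11.9 is the lowest of the 8 arrays.

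The genes around this core were read through 5 lists, which were chosen with earlier results of these data known. Of their 91 entries, 83 were measured. Of these 20 rose, 0 fell and 63 did not pass in limma's test, and at an unadjusted p under 0.05 there were 45 higher and 5 lower, which is 54.2% and 6.02% of them, against 15.3% and 18.3% of all genes. Over all genes 4.67% were called higher and 1.67% lower. The median log2 fold change was 0.40, against -0.07 for all genes. The count of 20 was 23 without transgenic replicate 2. It was 7 without transgenic replicate 1, 31 without transgenic replicate 4, and 9, 6, 7 and 10 without control replicates 1 to 4.

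Of 14 death ligands and receptors 5 rose and 9 did not pass, with a median of 0.35. Only 1 passed without transgenic replicate 1 or without any 1 control array, and 5 without transgenic replicate 2. The lymphotoxin chain Ltb rose by 2.17 (adjusted p = 0.0196) and the death ligand Tnfsf10, TRAIL, by 2.00 (adjusted p = 0.0215). The receptor Fas, which signals through Fadd, rose by 0.73 and read 8.35, 8.69, 8.16 and 8.01 in transgenic replicates 1 to 4, against 7.49, 7.66, 7.51 and 7.63 in control replicates 1 to 4 (adjusted p = 0.0208). The groups did not overlap. The second TNF receptor Tnfrsf1b rose by 0.87, and the death domain receptor Tnfrsf21 by 0.84. The death receptors for TNF and for TRAIL, and TNF itself, were chosen after their values were seen and did not pass: Tnfrsf1a stood at 0.15 (adjusted p = 0.401) and Tnfrsf10b at 0.36 (adjusted p = 0.0778). Tnf stood at 0.34 (adjusted p = 0.0845). In Tnf and Tnfrsf10b every transgenic array was above every control array, while in Tnfrsf1a the groups overlapped. The control readings of Tnfrsf10b, from 4.23 to 4.46, lay under every array median, so the size of its difference is uncertain. Lta, the other lymphotoxin chain, and Fasl, the ligand of Fas, were also chosen after their values were seen. They stood at -0.33 (adjusted p = 0.0959) and -0.01 (adjusted p = 0.911), with overlapping groups. All their readings lay under every array median, with the same limit.

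In the TNF receptor complex, enzymes that add or remove ubiquitin decide whether Ripk1 supports survival or death. Of 17 genes of this complex and its control, among them kinases and adaptors, 5 rose and 12 did not pass. All 17 fold changes were positive, and the median was 0.31. The count was 2, 5, 6 and 7 without transgenic replicates 1 to 4, and 3, 2, 2 and 3 without control replicates 1 to 4. Ripk1 was not measured through a probe set of its own. Tnfaip3, the ubiquitin editor A20, rose by 3.28 (adjusted p = 0.00286), and the ubiquitin ligases Birc2 and Birc3, which mark Ripk1 for survival signalling, rose by 1.78 and 1.49 (adjusted p = 0.0105 and 0.0199). Cyld, which removes ubiquitin chains and thereby favours death, rose by 0.85 (adjusted p = 0.0174). The kinase Tbk1, which restrains Ripk1, rose by 0.75 (adjusted p = 0.0403).

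Among 16 caspases and genes of mitochondrial apoptosis 3 rose and 13 did not pass, with a median of 0.08, the lowest of the 5 lists. The count was 1, 2, 4 and 4 without transgenic replicates 1 to 4, and 2, 1, 1 and 2 without control replicates 1 to 4. Apaf1, the scaffold of the apoptosome, rose by 1.99 (adjusted p = 0.0125). Its readings were 8.26, 8.97, 7.40 and 7.31 in transgenic replicates 1 to 4, against 6.05, 5.89, 5.88 and 6.16 in control replicates 1 to 4. The order of the transgenic livers is again 2, 1, 3 and 4. Bcl2l11, the death-promoting BH3-only protein Bim, rose by 0.89 (adjusted p = 0.00409), and Mcl1, a survival protein that hepatocytes depend on, by 0.43 (adjusted p = 0.0433). Casp9, the protease that Apaf1 activates, was chosen after its value was seen and stood at -0.31 on the same scale (adjusted p = 0.104). Endog, chosen in the same way, stood at -0.59 (adjusted p = 0.0554), with every transgenic array below every control array. In this list 1 gene was called lower with quantile normalization and without the dimmest 30% or 50%. The same count was reached without transgenic replicate 3 or 4.

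Of 19 regulators of necroptosis and genes of other lytic deaths, 3 rose and 16 did not pass, with a median of 0.40. The count was 1, 5, 5 and 7 without transgenic replicates 1 to 4, and 1, 0, 1 and 1 without control replicates 1 to 4. It was 5 with quantile normalization or without the dimmest 30%. Quantile normalization also gave 2 lower in this list, and leaving out transgenic replicate 3 or 4 gave 1 lower. Gsdmd, gasdermin D, which forms membrane pores in pyroptosis, rose by 1.33 (adjusted p = 0.0119). Casp4, a caspase that cuts it, rose by 1.15 (adjusted p = 0.0314), and the DNA sensor Aim2 by 0.95 (adjusted p = 0.0317). The readings of Aim2 in controls, from 4.28 to 4.59, lie under every array median, so the size of its rise is uncertain. Those of Casp4 in controls, from 4.66 to 4.92, lie under the control array medians of 4.99 to 5.08, with the same limit. Ticam1, the adaptor that can lead from Toll-like receptors to Ripk3, was chosen after its value was seen and stood at -0.28 (adjusted p = 0.0680). Ppm1b, of the same list and chosen in the same way, stood at -0.31 (adjusted p = 0.0774). In both, every transgenic array was below every control array.

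Zbp1, Mlkl and Casp8 are known to respond to interferon in many mouse cells. Of 17 interferon response genes 4 rose and 13 did not pass, with a median of 0.75. The count was 2, 6, 5 and 8 without transgenic replicates 1 to 4, and 2, 2, 2 and 3 without control replicates 1 to 4. The GTPase Gbp3 rose by 2.25, the antiviral Ifit2 by 2.21, and the transcription factors Irf1 and Irf8 by 1.93 and 1.01 (adjusted p = 0.0161, 0.0322, 0.00719 and 0.00894). The list mean was 7.85, 8.65, 7.22 and 7.21 in transgenic replicates 1 to 4, against 6.75 to 7.05 in the controls. All 4 transgenic means were above the controls, replicate 2 the highest and replicates 3 and 4 nearly equal.

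**Figure D4:**
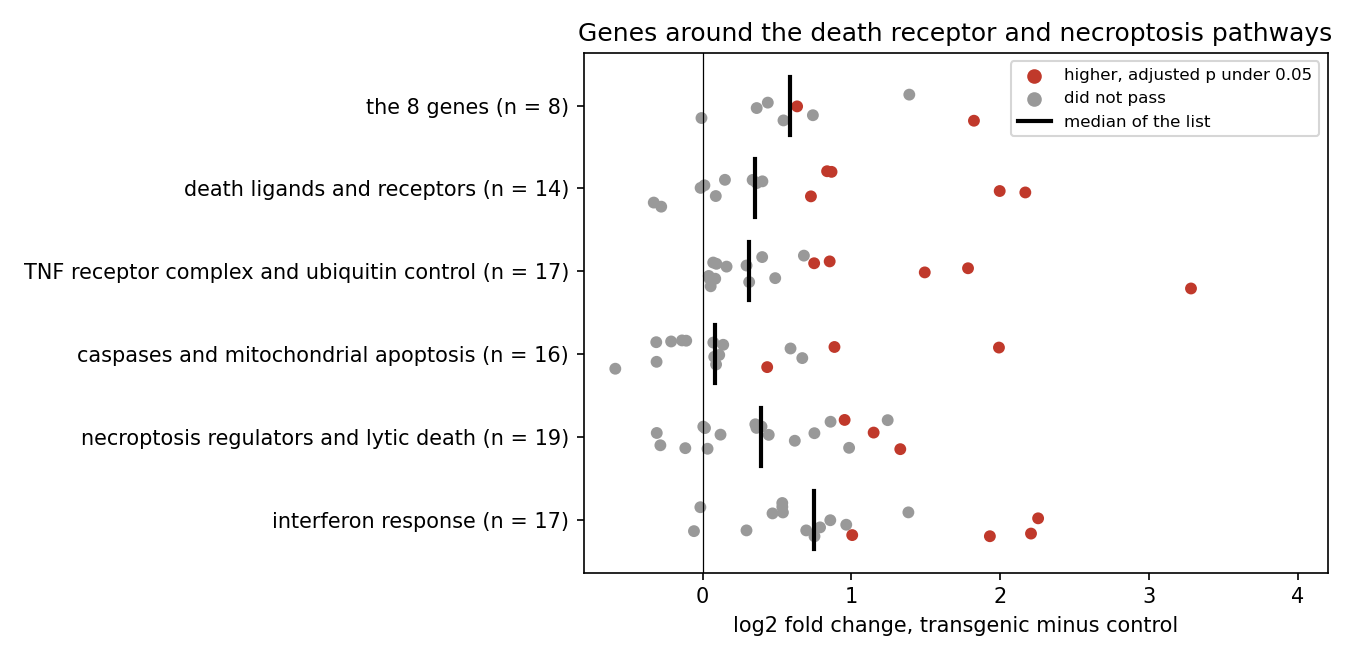
Log2 fold change (horizontal axis, transgenic minus control, n = 4 each) of each measured gene in the 8 genes and in the 5 lists around them, with the number of genes in brackets and the median as a bar. Red points passed the adjusted threshold: 2 in the top row, then 5, 5, 3, 3 and 4, all to the right of 0.

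Genes outside the 8 with the most similar profiles were sought among 9961 genes brighter than the median, by the root mean square distance between log2 profiles over the 8 arrays, each centred on its own mean. Nearest to Mlkl were Psmb8, a subunit of the immunoproteasome, Apaf1 and Treml4, a receptor of myeloid cells, at distances of 0.15, 0.17 and 0.17 log2 units. Nearest to Zbp1 were the phosphoinositide-binding protein Plekha2, the interferon-induced Oasl2 and the macrophage scavenger receptor Msr1, at 0.14, 0.15 and 0.15. Casp8 had Lgals3bp, a secreted galectin-binding protein, the topoisomerase Top1 and the ubiquitin-activating enzyme Uba6, at 0.06, 0.07 and 0.09. For Ripk3 they were B430306N03Rik and the solute carriers Slc16a9 and Slc5a3, at 0.13, 0.13 and 0.14. The distance is smaller for genes that change little, so it ranks genes for 1 member only.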

How the data were processed

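The authors deposited 1 log2 expression value for each probe set and liver. Per the submitters' processing notes these come from Affymetrix Expression Console, whose version, settings and normalization no source used here gives. Base 2 was read from the values, whose maximum is 14.1. No further normalization was applied. Of 35556 probe sets, 21789 had 1 gene symbol in the platform annotation and entered the fit; 1621 had several and 12146 none. Limma 3.58.1 in R 4.3.3 fitted the group to all 21789, with two-sided empirical Bayes tests and Benjamini-Hochberg adjustment over them, called at 0.05. Genes were counted once, through their brightest probe set. No filter on dim values was used, so all 8 genes were tested. Scanner files and background were not used, and precision is limited by the number of arrays.

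In simulated data, each gene had its real mean, an SD pooled over both groups and independent normal noise. There 40 of 50 genes raised by a log2 fold change of 1 and 50 of 50 raised by 2 were called among 19938 genes. In the real data the SD of all 8 genes was larger among transgenic livers, so these rates need not hold for them. The members and lists were chosen with earlier results of these data known. Named are the members, Ikbkb, each list's called genes (the 4 largest where over 5, the smallest p where none), the 3 nearest profiles of 4 members, and genes said to be chosen after their values were seen. Alternatives were quantile normalization, median centring, dropping the dimmest 30% or 50%, averaging probe sets, trend and robust moderation, array weights, a replicate block, and omission of each array.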

Additional observations from a re-analysis of the deposited data

How the results depend on the processing

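The log2 fold changes of 7 of the 8 genes kept their sign in all 16 alternatives; that of Tradd, -0.0080, took the other sign with each array centred on its median (0.0715) and ranged from -0.0639 to 0.0284 with 1 array left out, above 0 without transgenic replicates 3 or 4 or control replicate 1. The count of members that rose, 2, ranged from 0 to 4 over the alternatives that left out 1 array, and was 2 or 3 in the others. None fell in any. Over all genes, leaving out 1 array gave 192 to 1636 higher and 3 to 944 lower, against 932 and 333 with all 8. Quantile normalization gave 638 lower and array weights gave 501 lower. Centring on array medians gave 618 higher and 97 lower. Higher genes were 73.7% of the calls as deposited, 62.6% with quantile normalization and 86.4% with centring. In the pathway lists, leaving out 1 array gave 6 to 31 higher and 0 to 3 lower. Quantile normalization gave 3 lower, and dropping the dimmest 30% or 50% gave 1 lower each. The cause of these shifts was not tested.

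The replicate number does not pair the animals by the labels, and the deviations of same-numbered arrays from their group means correlated at 0.28, -0.03, 0.27 and -0.13 over genes. With the replicate block, 670 genes were higher and 174 lower, Mlkl kept its call (adjusted p = 0.0278), Zbp1 passed (0.0450) and Bid did not (0.0507). The comparison of Mlkl with Ripk3 kept its direction throughout, from 0.92 to 1.20 log2 units without 1 array, and that of Cflar with Casp8 from -0.26 to -0.07; neither passed in any alternative. The smallest adjusted p that a single one of the 2 comparisons could reach is 0.0571, and 0.25 with the block. Of 448 recomputed list counts, 56 moved by over 1.5 times or went between 0 and another count.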

Other observations

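Other cell types gave few calls in the same livers. Of 6 stellate cell markers the collagen chain Col1a1 rose, by 0.71 (adjusted p = 0.0185), and 5 did not pass; 0 were called without transgenic replicate 1 or control replicates 2 or 3. Of 5 B cell markers the scaffold protein Bank1 rose, by 1.16 (adjusted p = 0.0454), and 4 did not pass; 0 were called without transgenic replicate 1, without any 1 control array, with median centring or with the replicate block. Of 8 neutrophil, 6 endothelial and 5 bile duct markers 0 passed in limma's test, and at an unadjusted p under 0.05 there were 1, 2 and 0 higher and 0, 0 and 1 lower. The smallest p in each list belonged to the granule protein Ltf (0.23, adjusted p = 0.127), the adhesion molecule Pecam1 (0.33, adjusted p = 0.0684) and the keratin Krt19 (-0.25, adjusted p = 0.0885), where the first value is the log2 fold change. The neutrophil list mean was 4.29 to 4.81 in transgenic livers and 4.30 to 4.57 in control livers, under every array median.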
